A study of Mus musculus with 24 samples.

Results

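Genes of the ATF4 and CHOP stress programme were followed in dendritic cell cultures from mice with floxed alleles of Arpc4, a subunit gene of the actin-branching Arp2/3 complex, with or without a Cre recombinase. They are Atf4, Ddit3 (which encodes CHOP), Atf5, Atf3, Nupr1, Trib3, Chac1, Ppp1r15a, Sesn2 and Ddit4, found by symbol in the deposited gene annotation. The 10 genes correspond to 11 of 55487 identifiers, because a second Ddit3 identifier, nested in the first, held 0 counts in every library. All 10 genes passed the filter on low counts and were among the 14535 genes tested.

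RNA was sequenced in bulk from mouse bone-marrow-derived dendritic cells, which are grown from marrow in GM-CSF and collected from suspension. Every mouse carried Arpc4 Flox/Flox alleles: WT mice were CD11c-Cre -/- and KO mice CD11c-Cre +/-, so that Cre was driven by the CD11c promoter and acts in the cells that express CD11c. Male and female mice were used, and cells of 3 mice per genotype were taken on days 7, 8, 9 and 10, giving 8 groups of 3 libraries. The cells were replated on day 7, so the day of culture and the time since replating cannot be told apart.

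Total counts ran from 19952047 to 31049798 per library. On day 7, Arpc4 itself had 192 ± 5.62 CPM (counts scaled by library size, SD, n = 3) in WT. In KO it had 169 ± 13.7 CPM (SD, n = 3). In CPM the genotypes did not overlap on any day, a separation seen in 26.2% of all genes on day 7 and 10.4% on day 10. In the authors' TPM, which are per gene length, the genotypes were apart on day 7 but overlapped on days 8, 9 and 10. Arpc4 passed the adjusted test of edgeR in 0 of the 4 comparisons between genotypes (4 of 4 at an unadjusted p under 0.05). A gene-level count includes exons outside the floxed part, so it checks the deletion only in part. Ddx3y, a Y-linked gene, was high in 8 libraries, 1 per group. They carried mouse number 63 on every day in WT, but numbers 64, 68, 64 and 67 on days 7 to 10 in KO, so the KO numbers go against these data. CD11c (Itgax) and the other 8 dendritic cell markers were each above 1 CPM on average in every group, and markers of macrophages and neutrophils were present too. In bulk RNA, fewer cells of a type and less RNA per cell cannot be told apart.

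In the integrated stress response, kinases that sense amino acid shortage, misfolded protein, viral RNA or haem shortage phosphorylate the translation factor eIF2. General translation falls while that of the Atf4 mRNA rises, and the ATF4 protein then induces genes for amino acid supply and redox balance. Longer or stronger signalling induces CHOP and its partners, which are linked to cell death, and an eIF2 phosphatase subunit closes the loop. ATF4 is controlled largely by translation, so its mRNA level is only a part of its activity.

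Some promoters of these genes hold short elements bound by ATF4 and related factors. RefSeq promoters (GRCm38.p6, 250 bases before to 50 after the start) were found for all 10 genes, 11 promoters in all, and were searched on both strands. The letters TGATGNAA, the C/EBP-ATF response element (CARE), occurred in 4 of the 10 genes, against 3.97% of 32851 promoters. The letters TGACGTCA, the cAMP response element (CRE), occurred in 1 of the 10, against 1.79%. The endoplasmic reticulum stress element (CCAAT, 9 bases of any kind, then CCACG) occurred in none, against 0.119%. The elements were searched for separately. The stretch with the match is given for each of these 5 genes. Of them, Atf3, Chac1, Trib3 and Ppp1r15a fell in WT from day 7 to day 8, and Nupr1 was not called. Of the 5 genes with no match, Atf4 fell as well. Among all 10 genes 5 fell, against 22% of all genes. The genes were chosen with earlier results known and the matches pool different elements. Whether a match goes with a fall was not tested. In CPM, Ddit3 and Atf5 were lower in every WT library of day 8 than on day 7 without passing the test. In TPM the 2 days overlapped for both genes, with changes of -0.15 and -0.11 on log2(TPM + 1) (limma, adjusted p = 0.41 and 0.66). Each stretch is 5′ to 3′ on the gene's strand with the match in capitals, and a CARE match reads as its reverse complement there.
Atf3: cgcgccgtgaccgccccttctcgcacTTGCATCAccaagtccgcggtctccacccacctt
Chac1: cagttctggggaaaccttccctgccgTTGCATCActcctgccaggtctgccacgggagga
Nupr1: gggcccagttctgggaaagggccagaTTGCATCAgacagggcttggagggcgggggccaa
Trib3: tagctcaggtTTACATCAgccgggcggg
Ppp1r15a: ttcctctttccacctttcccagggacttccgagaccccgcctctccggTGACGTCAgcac
The Atf3 stretch is chr1:191183410-191183469 on the minus strand, the Chac1 stretch chr2:119351023-119351082 on the plus strand, and the Nupr1 stretch chr7:126625547-126625606 on the minus strand. The Trib3 stretch is chr2:152344029-152344056 and the Ppp1r15a stretch chr7:45526269-45526328, both on the minus strand. A match describes the sequence only and is not a measured binding site.

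By GENCODE M21 on GRCm38 all 10 are protein-coding genes. Atf4 lies at chr15:80255184-80257541 on the plus strand, Ddit3 at chr10:127290774-127296288 on the plus strand, Trib3 at chr2:152337422-152344032 on the minus strand and Chac1 at chr2:119351229-119354381 on the plus strand. Atf5 (chr7:44812256-44816658), Ppp1r15a (chr7:45522916-45526268) and Nupr1 (chr7:126623249-126630861) share a chromosome and the minus strand. Atf3 (chr1:191170296-191218039), Sesn2 (chr4:132492032-132510501) and Ddit4 (chr10:59949669-59951834) are on the minus strand too.

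Levels between genes were compared per length, as the authors' TPM. Atf3 had the highest mean TPM over the 24 libraries, 301, followed by Atf4 at 249 and Atf5 at 173. Sesn2 had a mean of 61.0 TPM, Ppp1r15a 41.0, Ddit3 38.3, Ddit4 18.8, Trib3 12.8, Nupr1 9.05 and Chac1 2.58. The order at the top varied by group: in KO on days 8, 9 and 10 the mean of Atf4 was above that of Atf3 (280 against 230, 261 against 227 and 212 against 207 TPM). Every pair of neighbours in the pooled order had overlapping ranges over the 24 libraries. The other values are CPM, which compare libraries for the same gene.

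On day 7, 2 of the 10 genes, Atf4 and Trib3, were lower in KO than in WT. Atf4 was 1.45-fold lower and Trib3, a pseudokinase that ATF4 and CHOP induce and that restrains them, 2.16-fold lower. These 2 were called lower by edgeR's quasi-likelihood test with Benjamini-Hochberg adjustment, against 0.619% of all genes tested, and 0 were called higher, against 0.832%. The log2 fold change was negative for 9 of the 10, with a median of -0.39 against -0.01 for all genes. In 6 of the 10 genes the 2 genotypes did not overlap in CPM, against 26.2% of all genes, and 6 had an unadjusted p under 0.05, against 15.7%. Of these separations, that of Chac1 was absent in TPM.

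Atf4, the transcription factor at the head of the response, was at 244, 277 and 299 CPM in the WT libraries of day 7. The KO libraries were at 186, 189 and 188 CPM. Every KO library was below every WT library, and the KO libraries lay close together. The log2 fold change was -0.54 (SE 0.10, adjusted p = 0.0096). The adjusted p became 0.056 without WT number 65, 0.068 without WT number 66 and 0.058 without KO number 67.

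Trib3 was at 17.5, 18.2 and 23.8 CPM in WT on day 7. In KO it was at 8.22, 9.82 and 9.43 CPM. The groups stood apart by a wide gap. The log2 fold change was -1.11 (SE 0.15, adjusted p = 0.00046), and the gene was called in 15 of 15 alternative analyses.

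Another 4 genes did not overlap in CPM between genotypes on day 7 without passing the adjusted test. Chac1, which encodes an enzyme that degrades glutathione, was at 2.37, 2.95 and 4.58 CPM in WT and 0.639, 2.27 and 1.24 CPM in KO (log2 fold change -1.26, SE 0.42, adjusted p = 0.15). Its raw counts were low: between 59 and 107 per WT library and between 16 and 53 per KO library. In TPM its genotypes overlapped (3.82 to 7.38 in WT and 1.07 to 4.01 in KO). Atf5, a relative of ATF4 with a similar translational control, was at 163, 184 and 205 CPM in WT and 105, 95.6 and 116 CPM in KO (log2 fold change -0.80, SE 0.23, adjusted p = 0.081). Atf5 passed the threshold in 5 of 15 alternatives: DESeq2's Wald test (adjusted p = 0.022), no filter on low counts (0.0082), a fit of the day 7 groups alone (0.013), a random replicate block with exchanged KO numbers (0.046) and the 16 libraries with low Ddx3y (0.0096). Ddit3 was at 25.0, 31.6 and 33.2 CPM in WT and 20.7, 20.4 and 22.3 CPM in KO (log2 fold change -0.50, SE 0.18, adjusted p = 0.18). Sesn2, a stress-induced inhibitor of mTORC1, differed by -0.23 on the log2 scale (SE 0.091, adjusted p = 0.21).

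The 4 genes not named above had overlapping genotypes on day 7 and missed the threshold. Atf3, another stress-induced repressor and activator of transcription, had a log2 fold change of -0.28 (SE 0.26, adjusted p = 0.65). Ppp1r15a, the eIF2 phosphatase subunit GADD34, had -0.28 (SE 0.13, adjusted p = 0.32). Nupr1, a small chromatin protein, had -0.12 (SE 0.16), and Ddit4, an mTORC1 inhibitor also known as REDD1, had 0.32 (SE 0.17, adjusted p = 0.36). A p that misses the threshold does not show that these levels were equal. With the 16 low-Ddx3y libraries alone, a choice made after seeing the data, 4 genes were called lower, against 0.716% of all genes in that fit: Ddit3 (log2 fold change -0.60, adjusted p = 0.037) and Atf5 (-0.87, adjusted p = 0.0096) joined Atf4 and Trib3.

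Reads of Ddit3 and Atf5 share positions with genes on the other strand. Mars, the methionyl-tRNA synthetase gene, overlaps exons of Ddit3 and had 256% of its counts, and Nup62 and Il4i1 overlap exons of Atf5. In KO on day 7, Mars had a log2 fold change of -0.38 (adjusted p = 0.10), Nup62 one of -0.17 (adjusted p = 0.31) and Il4i1, in the direction opposite to Atf5, one of 0.63 (adjusted p = 0.41). In WT, edgeR called Mars lower from day 7 to day 8 (-0.57, adjusted p = 0.00037) and to day 10 (-0.33, adjusted p = 0.026), the same direction as Ddit3. Opposite to Atf5, Nup62 was called higher to day 8 (0.34, adjusted p = 0.0017) and Il4i1 to day 10 (1.28, adjusted p = 0.0091). The strand setting of the counting is not given in the sources used here, so the share of each could not be told apart.

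**Figure D1:**
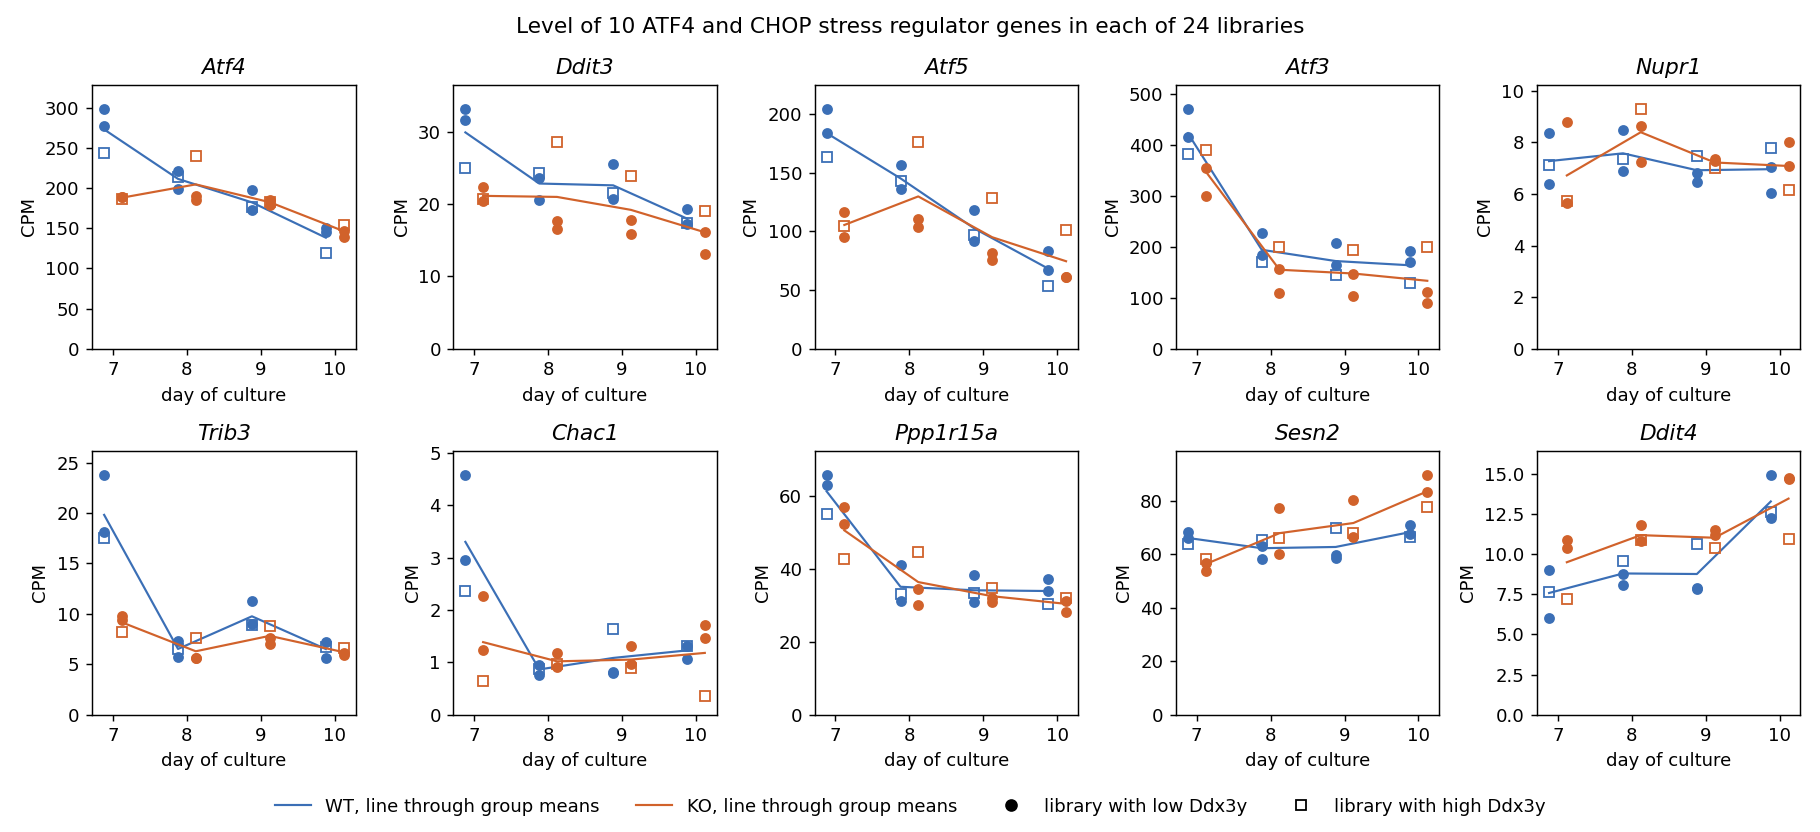
CPM of each of the 10 genes against the day of culture, 3 libraries per genotype and day (points, blue WT and orange KO; open squares are the high-Ddx3y libraries) with lines through the group means. Trib3 and Chac1 were at their highest in WT on day 7, where Trib3 stood at 17.5 to 23.8 CPM against 8.22 to 9.82 CPM in KO.

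Markers of other cell types were detected on day 7 in both genotypes. Bulk RNA cannot tell whether other cells or the dendritic cells themselves expressed them. Summed CPM of 8 neutrophil and granulocyte precursor markers ran from 1656 to 3239 in WT and 2225 to 5803 in KO. The 4 monocyte markers ran from 455 to 683 and from 515 to 1107, with the highest values of both lists in KO number 67. The 4 mast cell and basophil markers summed to 59.5, 74.9 and 70.5 CPM in WT and 67.3, 214 and 132 CPM in KO. The 7 macrophage markers ran from 4341 to 4589 in WT and 4060 to 4863 in KO, and the 9 dendritic cell markers from 2832 to 3460 and from 3136 to 3735. The part of cell composition in the Atf4 and Trib3 differences was not tested.

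On days 8, 9 and 10, 0 of the 10 genes were called between the genotypes by edgeR, and 0 by DESeq2 or by limma on the TPM. The share of all genes called by edgeR was 0.00688%, 0.00688% and 0.0138% on the 3 days. By DESeq2's Wald test it was 0.117%, 0.619% and 0.296%, and by limma 0.00688%, 0.00688% and 0.0688%. Without adjustment, 1, 2 and 1 of the 10 genes had a p under 0.05, against 5.91%, 8.15% and 7.3% of all genes. Ddit4 was the gene on day 8, Trib3 and Sesn2 on day 9, and Sesn2 on day 10. Sesn2 was at 66.4, 67.3 and 70.7 CPM in WT and 89.6, 77.5 and 83.3 CPM in KO on day 10. Every KO library was above every WT library, a separation seen in 10.4% of all genes, but the log2 fold change of 0.29 (SE 0.09) had an adjusted p of 0.38.

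**Figure D2:**
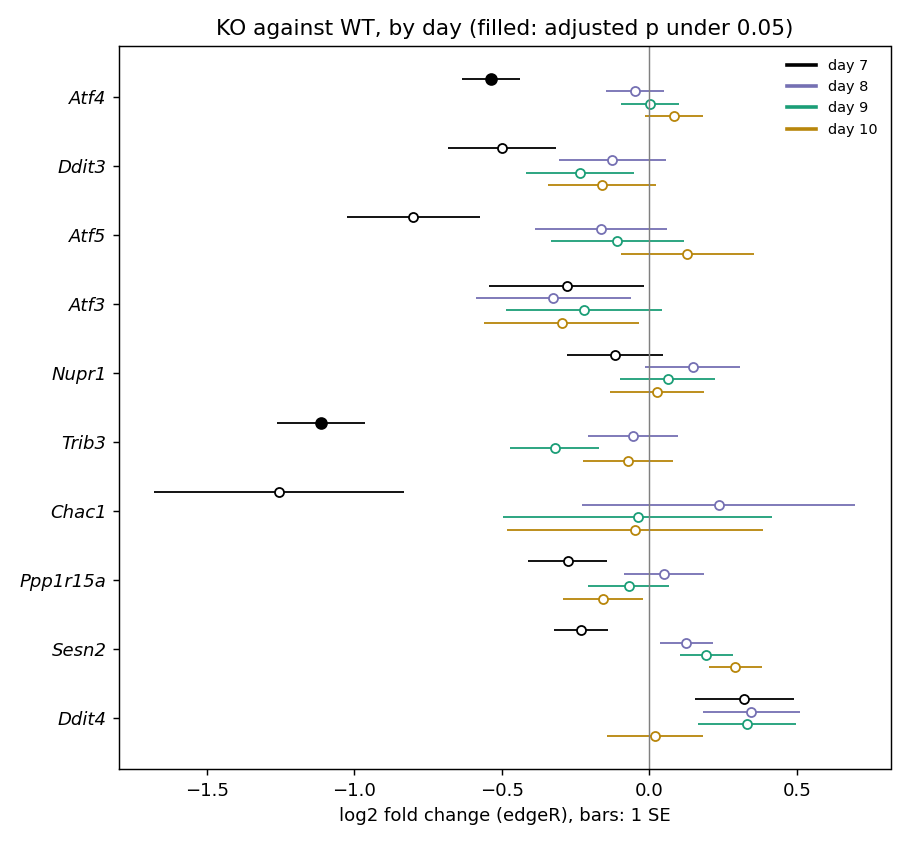
Log2 fold change of KO against WT for each gene on days 7 to 10, with bars of 1 SE and filled points for an adjusted p under 0.05. The filled points are Atf4 at -0.54 and Trib3 at -1.11, both on day 7.

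The genes were also compared between days within each genotype. These comparisons share the day 7 libraries with the comparison of genotypes on day 7, so their values are given side by side and nothing is read from their resemblance. In WT, 5 genes fell from day 7 to day 8 and 7 had fallen by day 10, when Ddit4 had risen. Over all genes in WT, 22% were called lower and 21.5% higher to day 8, and 18.1% and 18.9% to day 10. In KO, 3 genes fell and Sesn2 rose from day 7 to day 8, and 4 had fallen and 2 had risen by day 10, against 20.9% lower and 21.1% higher over all genes to day 8 and 17.1% and 19.7% to day 10. The KO balance depended on the scale: limma on log2(TPM + 1) called 1 gene lower and 5 higher to day 8, against 11.2% and 34.8% of all genes, and 2 lower and 2 higher to day 10, against 7.29% and 44.3%.

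The largest WT changes from day 7 to day 8 were those of Chac1 and Trib3. Lower calls were made in 5 of the 10 genes, against 22% of all genes, and higher calls in 0, against 21.5%. Trib3 was at 6.53, 7.27 and 5.74 CPM on day 8, below all 3 WT libraries of day 7 (log2 fold change -1.60, SE 0.15, adjusted p = 7.8e-08). Chac1 was at 0.874, 0.957 and 0.758 CPM (-1.93, SE 0.44, adjusted p = 0.0014). Atf3 fell from 382, 470 and 415 CPM to 171, 226 and 184 CPM (-1.12, SE 0.27, adjusted p = 0.0019). Ppp1r15a fell by 0.80 (SE 0.14, adjusted p = 7.8e-05) and Atf4 by 0.37 (SE 0.098, adjusted p = 0.0046) on the log2 scale. In CPM, 7 of the 10 genes (these 5, Ddit3 and Atf5) had every WT library of day 8 below those of day 7. A separation downward was seen in 30% of all genes. In TPM the 2 days overlapped for Atf4 (273 to 334 on day 7 and 261 to 293 on day 8), Ddit3 and Atf5. A fixed replicate block with KO numbers exchanged to follow Ddx3y, added after seeing the data, also called Ddit3 (log2 fold change -0.38, adjusted p = 0.012) and Atf5 (-0.34, adjusted p = 0.031) lower in this step, where it called 25.9% of all genes lower.

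In KO, Atf3 fell from 389, 300 and 355 CPM on day 7 to 156, 109 and 200 CPM on day 8 (log2 fold change -1.17, SE 0.27, adjusted p = 0.0014). Trib3 fell by 0.54 (SE 0.15, adjusted p = 0.0069) and Ppp1r15a by 0.48 (SE 0.14, adjusted p = 0.0078), while Sesn2 rose by 0.27 (SE 0.09, adjusted p = 0.021). Lower calls were made in 20.9% of all genes and higher calls in 21.1%. Sesn2 was no longer called without KO number 67 on day 7 (adjusted p = 0.056) or on day 8 (0.15). Ppp1r15a was no longer called without KO number 68 on day 7 (adjusted p = 0.055) or 64 on day 8 (0.056). Atf4 was at 185, 189 and 240 CPM in KO on day 8 (log2 fold change 0.12, SE 0.10, adjusted p = 0.34). Nupr1 was called higher only without KO number 67 of day 7 among the analyses of the counts that left out 1 library (0.58, adjusted p = 0.0057).

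From day 7 to day 10 in WT, where 18.1% of all genes were called lower, Atf4 fell by 0.98 (SE 0.10), Ddit3 by 0.73 (SE 0.18), Atf5 by 1.43 (SE 0.23), Atf3 by 1.37 (SE 0.27), Trib3 by 1.61 (SE 0.15), Chac1 by 1.42 (SE 0.42) and Ppp1r15a by 0.85 (SE 0.14) on the log2 scale. Their adjusted p ran from 2.3e-07 for Trib3 to 0.012 for Chac1, whose call ended without WT number 66 of day 7 (adjusted p = 0.075). Ddit4 rose by 0.81 (SE 0.17, adjusted p = 0.00078), from 7.67, 6.04 and 9.03 CPM to 12.6, 12.3 and 14.9 CPM, and 18.9% of all genes were called higher. Sesn2 and Nupr1 had log2 fold changes of 0.05 and -0.06.

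In KO over the same span, where 17.1% of all genes were called lower and 19.7% higher, Atf4 fell by 0.36 (SE 0.098, adjusted p = 0.0069), Atf3 by 1.39 (SE 0.27), Trib3 by 0.56 (SE 0.15) and Ppp1r15a by 0.73 (SE 0.14). Sesn2 rose by 0.57 (SE 0.09, adjusted p = 7.4e-05), from 58.2, 53.8 and 56.7 CPM to 89.6, 77.5 and 83.3 CPM. Ddit4 rose by 0.51 (SE 0.16, adjusted p = 0.021), but not past the threshold without KO number 64 of day 7 (adjusted p = 0.13) or number 64 or 68 of day 10 (0.082 and 0.083), or in a fit of the compared groups only (0.11). The fixed block with exchanged KO numbers also called Ddit3 (-0.41, adjusted p = 0.010) and Atf5 (-0.56, adjusted p = 0.0015) lower, where it called 21.7% of all genes lower. Without KO number 67 of day 10 these were called too (Ddit3 -0.53, adjusted p = 0.042, and Atf5 -0.79, adjusted p = 0.010).

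Cell-type markers moved over the same days. In WT the summed dendritic cell markers went from 2832 to 3460 CPM on day 7 to 5713 to 7517 CPM on day 10, the macrophage markers from 4341 to 4589 CPM to 2986 to 3100 CPM, and the neutrophil markers from 1656 to 3239 CPM to 4004 to 5874 CPM, with no overlap between the days. In KO on day 10 these lists stood at 5192 to 8413, 2674 to 3980 and 2840 to 4758 CPM. The dendritic cell and macrophage sums did not overlap those of KO on day 7, and the neutrophil sums did. Their part in the changes between days was not tested.

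A shift in scale bears on the changes between days. The 10 most abundant genes held 20.9% to 21.3% of counts in WT on day 7 and 17.2% to 20.2% in KO, against 13.5% to 15.1% and 9.31% to 14.8% on later days. On log2(TPM + 1), the median of all genes moved by 0.17 in WT and in KO from day 7 to day 8, and by 0.21 and 0.25 from day 7 to day 10. On that scale the WT change of Atf4 to day 8 was -0.14 (adjusted p = 0.22), which is -0.30 relative to the median. The KO change of Atf4 to day 10 was -0.05 (adjusted p = 0.63), or -0.30 relative to the median, and the KO change of Trib3 was no longer called on day 8 (-0.30, adjusted p = 0.057) or day 10 (-0.23, adjusted p = 0.12). Relative to the median these were -0.47 and -0.48. The KO change of Ppp1r15a to day 8 (-0.25, adjusted p = 0.12, or -0.42 relative to the median) was also lost.

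The same scale added calls as well. In KO from day 7 to day 8 it called Atf4 higher at 0.34 (adjusted p = 0.0040), Atf5 at 0.49 (adjusted p = 0.036), Nupr1 at 0.51 (adjusted p = 0.013) and Ddit4 at 0.46 (adjusted p = 0.040). Relative to the median of all genes these were 0.17, 0.32, 0.34 and 0.29. In WT from day 7 to day 10 it called Sesn2 higher at 0.32 (adjusted p = 0.036), or 0.11 relative to the median, against 39.9% of all genes called higher and 7.37% lower. To day 8 it called 35% of all genes higher and 11.8% lower in WT.

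Between the later days, Trib3 rose in WT from day 8 to day 9 (log2 fold change 0.58, SE 0.15, adjusted p = 0.031), against 3.06% of all genes called higher. That call was lost in each of the 6 analyses that left out 1 library and, with mouse number as a random replicate block, its adjusted p was 0.052. From day 9 to day 10 in WT, Atf4 fell by 0.40 (SE 0.098, adjusted p = 0.032), Trib3 fell by 0.58 (SE 0.15, adjusted p = 0.039) and Ddit4 rose by 0.60 (SE 0.17, adjusted p = 0.049), against 2.42% lower and 1.18% higher over all genes. A fixed block for mouse number left 1 of these 3 calls, against 2.92% of all genes called in that fit, and 0 to 2 calls were left without 1 library. In KO, 0 genes were called by edgeR in the step to day 9 and 0 in the step to day 10, with 1 and 3 at an unadjusted p under 0.05, against 2.33% and 0.0963% of all genes called and 18.7% and 12% at that unadjusted p. With KO numbers exchanged to follow Ddx3y, the fixed block called 1 gene in each of these steps, against 13.2% and 5.95% of all genes in that fit. DESeq2's Wald test called 0 genes in each step, against 5.97% and 1.42% of all genes. Limma on the TPM called 0 too, against 1.59% and 0.0894%.

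The difference between genotypes in the change between days was tested as an interaction. By edgeR 0 of the 10 genes were called for days 7 to 8 and 0 for days 7 to 10, against 0.0275% and 0.0619% of all genes, and 4 genes had an unadjusted p under 0.05 each time, against 4.71% and 6.31% of all genes. The smallest adjusted p was that of Trib3, whose fall to day 8 was smaller in KO by 1.06 on the log2 scale (SE 0.21, adjusted p = 0.097). To day 10 it was smaller by 1.04 (SE 0.21, adjusted p = 0.086), and that of Atf4 by 0.62 (SE 0.14, adjusted p = 0.15). The change of Sesn2 to day 10 was more positive in KO by 0.52 (SE 0.13, adjusted p = 0.27). DESeq2's Wald test called Trib3 to day 8, and Trib3 and Atf4 to day 10, against 0.165% and 0.255% of all genes. Limma on the TPM called Trib3 to day 10 (adjusted p = 0.045), against 0.0413% of all genes. The fixed block with exchanged KO numbers, added after seeing the data, called 1 gene to day 8 and 4 to day 10, against 0.537% and 1.79% of all genes in that fit.

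**Figure D3:**
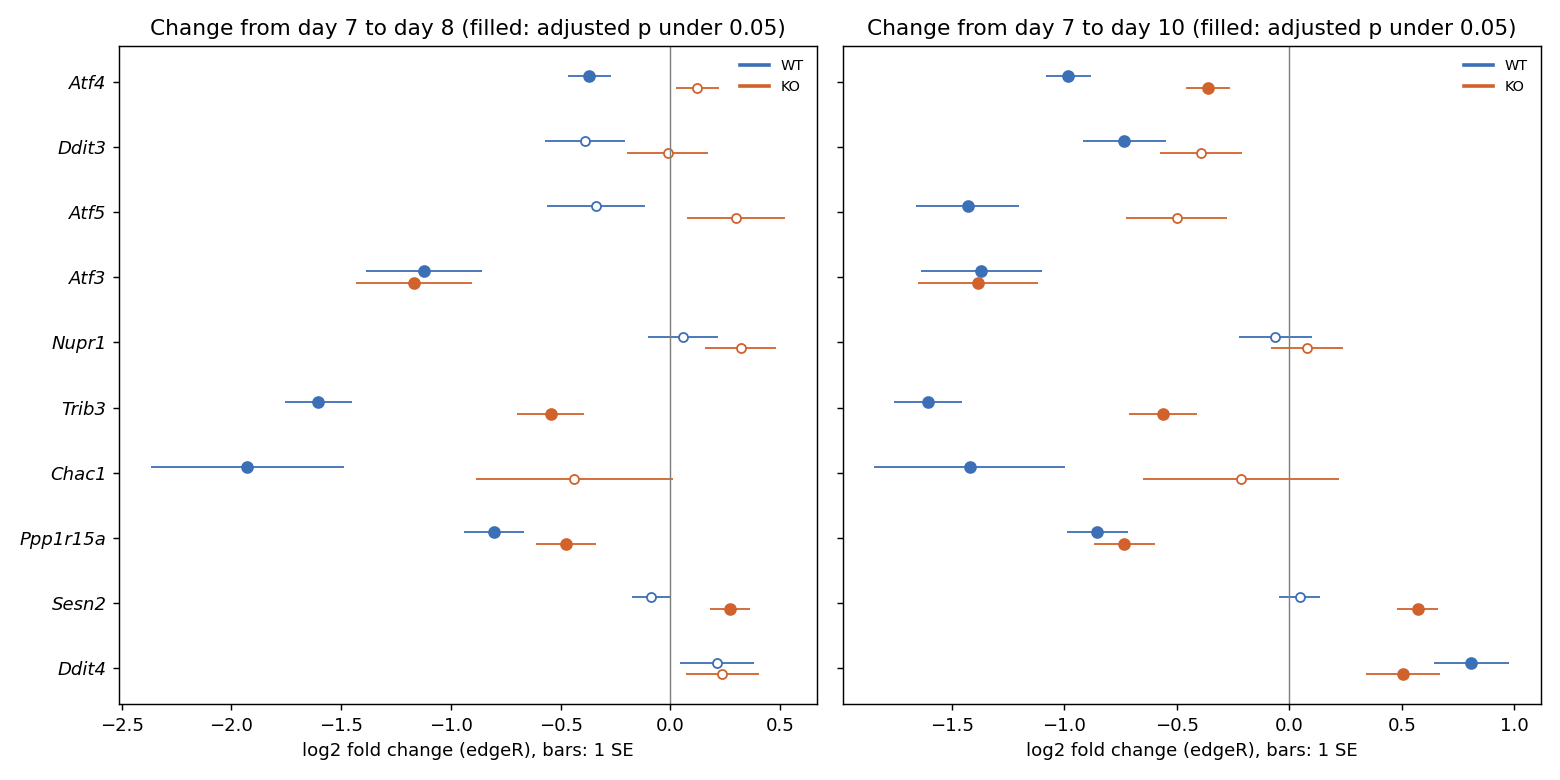
Log2 fold change of each gene from day 7 to day 8 and from day 7 to day 10 in WT (blue) and KO (orange), with bars of 1 SE and filled points for an adjusted p under 0.05. Trib3 fell by 1.60 in WT and 0.54 in KO to day 8, and Sesn2 rose by 0.57 in KO to day 10.

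The other genes of the pathway were given by lists. On day 7, amino acid synthesis enzymes that ATF4 drives had 5 of 10 tested members called lower in KO, against 0.619% of all genes, and 0 higher, with a median log2 fold change of -0.93 and all 10 values negative. Asns, which makes asparagine, was at 39.8 ± 7.15 CPM (SD, n = 3) in WT and 12.8 ± 1.66 CPM (SD, n = 3) in KO (log2 fold change -1.64, SE 0.16, adjusted p = 1.1e-05). Phgdh, the first enzyme of serine synthesis, had -1.53 (SE 0.37, adjusted p = 0.043). Of 20 cytosolic aminoacyl-tRNA synthetases, which charge tRNAs with amino acids, 10 were called lower, against the same 0.619%, and 0 higher (median -0.29). Aars and Cars had the largest changes of that list, -0.69 (SE 0.073, adjusted p = 4.1e-05) and -0.65 (SE 0.085, adjusted p = 0.00035).

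Of 9 amino acid transporters, 2 were called lower on day 7, against 0.619% of all genes (median -0.36): Slc7a1, a cationic amino acid transporter, at -0.86 (SE 0.15, adjusted p = 0.0062) and Slc1a5, a glutamine carrier, at -0.37 (SE 0.09, adjusted p = 0.043). None of 14 other ATF4 targets, 21 endoplasmic reticulum chaperones and XBP1 or ATF6 targets, 16 p53 targets, 15 hypoxia genes, 7 glucocorticoid response genes or 14 immediate early genes was called by edgeR, against 0.619% lower and 0.832% higher over all genes, and their medians ran from -0.09 to 0.04. At an unadjusted p under 0.05 these lists had 4, 3, 0, 3, 1 and 1 genes in that order, against 15.7% of all genes. Among 18 genes for eIF2, its kinases and eIF2B, 1 was called lower, against the same 0.619%: Eif2s2, an eIF2 subunit (-0.45, SE 0.069, adjusted p = 0.0022). Among 5 CHOP targets 1 was called lower, against the same share: Bcl2, which CHOP represses (-0.67, SE 0.17, adjusted p = 0.047). On days 8, 9 and 10, 0 genes of these lists were called between the genotypes by edgeR. At an unadjusted p under 0.05 each list had 0 to 2 genes per day, except the glucocorticoid response list (4, 3 and 3 of 7) and the immediate early list (9, 5 and 7 of 14), against 5.91%, 8.15% and 7.3% of all genes on the 3 days.

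**Figure D4:**
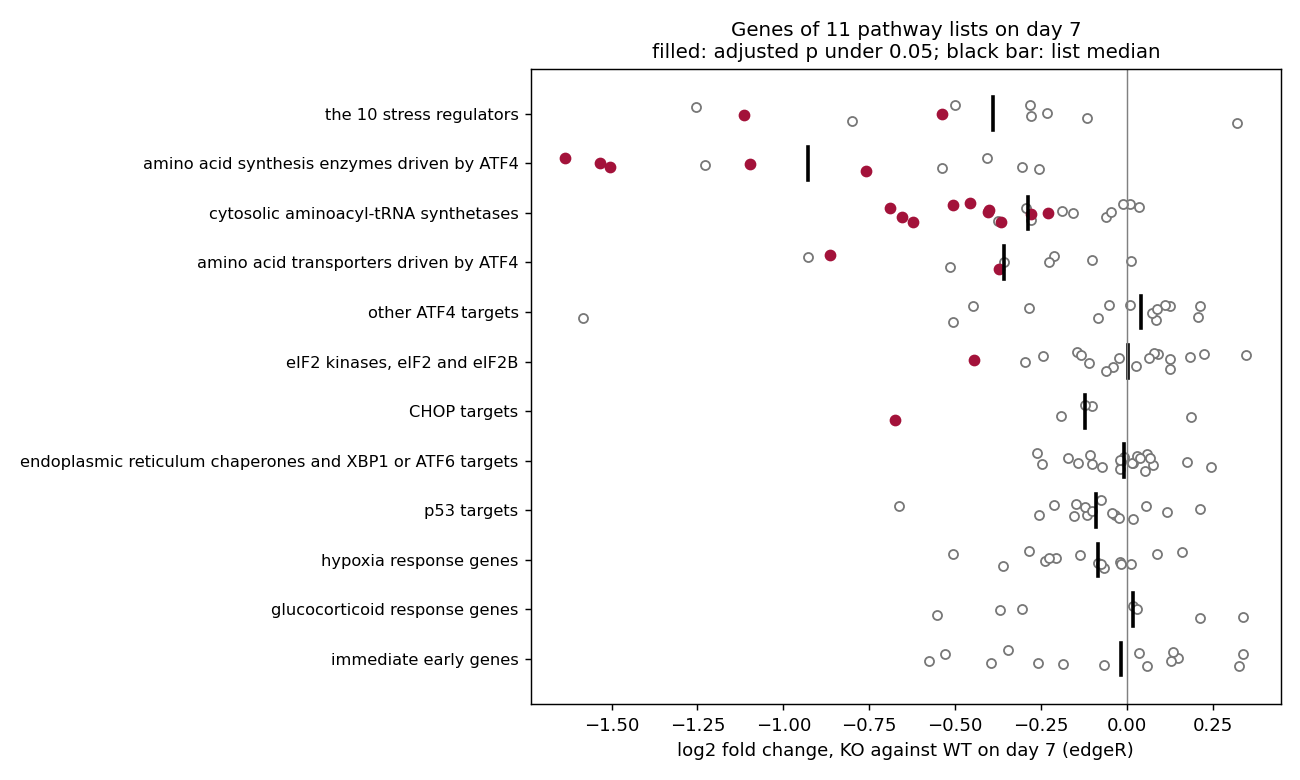
Log2 fold change of KO against WT on day 7 for each gene of the 10 stress regulators and 11 lists, with the list median as a black bar and filled points for an adjusted p under 0.05. The amino acid synthesis list has the lowest median, -0.93, and the chaperone list one of -0.01.

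The lists were also counted from day 7 to day 8 in each genotype, on the edgeR scale only. Over all genes, 22% were called lower and 21.5% higher in WT, and 20.9% and 21.1% in KO. Amino acid synthesis enzymes had 5 lower and 0 higher calls in WT, with Asns at -1.48 (SE 0.16, adjusted p = 3.0e-07), and 0 lower and 3 higher in KO, with Phgdh at 1.65 (SE 0.37, adjusted p = 0.0013). Synthetases had 7 lower and 5 higher calls in WT, and 1 lower and 12 higher in KO. Transporters had 2 higher calls in WT and 5 in KO, Slc7a5, which imports leucine and other large neutral amino acids, rising by 1.40 (SE 0.33) and 2.03 (SE 0.34). Chaperones had 15 higher and 2 lower calls in each genotype, and Pdia4 rose by 2.25 (SE 0.17) in WT and 2.06 (SE 0.17) in KO. The test of the difference called 2 synthesis enzymes and 2 synthetases, against 0.0275% of all genes.

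Likeness between genes was measured as Pearson's r over the 8 group means of log2 CPM among 10621 genes, which share the same libraries, and is a description. The genes most like Atf4 were Lasp1 (r = 0.9927), Xpot (0.9856), Il1rn (0.9842), Atf5 (0.9818) and Dusp4 (0.9789). Ddit3 ranked 75 with r = 0.9103, and Ddit4 had r = -0.8666. The genes most like Ddit3 were Zfp105 (0.9802), Cd36 (0.9747), Rcn2 (0.9729), Hist1h1c (0.969) and Lpl (0.968), and those most like Trib3 were Sra1 (0.9835), Dmtf1 (0.981), Sec63 (0.9797), Chst11 (0.9738) and Taf1d (0.9732).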

How the data were processed

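Each library holds polyA RNA of cells from 1 mouse on 1 day. The authors deposited whole-number counts per gene and TPM per gene. Per the submitters' processing notes, FastQC 0.11.9, STAR 2.6.1, DESeq2 1.22.2 and the mm10 build were used. The counter, its strand setting and the annotation are not given in the sources used here. Of 55487 identifiers, 55094 matched GENCODE M21 with version and 55394 without. The labels' protocols name 2 library kits without assigning them to libraries.

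Counts were tested in R 4.3.3 with edgeR 4.0.16: filterByExpr kept 14535 genes, TMM factors scaled the libraries, and a quasi-likelihood fit of 8 groups left 16 residual degrees of freedom. Calls are Benjamini-Hochberg adjusted p under 0.05 over those genes, and p-values measure the spread between libraries within groups. Per the labels, each of the 6 mice gave libraries on 4 days, and the main fit treats these as independent. Alternatives used DESeq2 1.42.0, limma 3.58.1 on log2(TPM + 1), other filters, left-out libraries and replicate blocks. The 10 genes and the lists were chosen with earlier results of these data known. Named from the lists were up to 2 genes per direction with the largest called change at an average log2 CPM above 1, on day 7 and from day 7 to day 8.

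Same-numbered libraries come from 1 mouse per the labels. Their deviations from group means correlated in WT (mean r 0.492, lowest 0.148, 18 pairs) but not in KO (mean r -0.0047, from -0.796 to 0.799, 18 pairs). The high-Ddx3y libraries correlated in both (0.616 and 0.696, 6 pairs each), so KO numbers were also exchanged to follow Ddx3y (64 with 68 on day 8, 64 with 67 on day 10).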

Additional observations from a re-analysis of the deposited data

Results flagged for a closer look

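Some genes of the pathway lists differed between the genotypes in their change over days, by the edgeR test of the difference itself. The positive values mean that the change from day 7 was more positive in KO. For the change to day 8, Asns differed by 1.60 on the log2 scale (SE 0.22, adjusted p = 0.0067), Psat1, an enzyme of serine synthesis, by 1.55 (SE 0.26, adjusted p = 0.033), Aars by 0.65 (SE 0.10, adjusted p = 0.030) and Nars, the asparaginyl-tRNA synthetase, by 0.42 (SE 0.074, adjusted p = 0.045).

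For the change to day 10, Asns differed by 1.5 (SE 0.22, adjusted p = 0.0062), Psat1 by 1.58 (SE 0.26, adjusted p = 0.019), Aars by 0.75 (SE 0.10, adjusted p = 0.0040), Cars by 0.70 (SE 0.12, adjusted p = 0.024), Eprs, a bifunctional synthetase, by 0.57 (SE 0.096, adjusted p = 0.022) and Nars by 0.43 (SE 0.074, adjusted p = 0.024). On day 7, Psat1 averaged 45.2 ± 8.08 CPM across WT mice against 15.9 ± 1.2 CPM across KO mice (SD, n = 3). On day 10 its averages were 36.4 ± 4.50 CPM and 38.2 ± 7.48 CPM, in the same order (SD, n = 3). These differences use the same day 7 libraries as the comparison of genotypes on day 7 and are not independent of it.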

How the results depend on the processing

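No alternative reversed a called direction. Percentages in brackets are the share of all genes called, in either direction, in the same fit. For KO against WT on day 7, with 2 called, leaving out 1 library gave 1 to 2 (1 without WT number 65 or 66 or KO number 67). There the 16 libraries with low Ddx3y gave 4 (2.22%). For WT day 8 to 9, with 1 called, leaving out 1 library gave 0 to 0, the random replicate block 0 (3.66%) and the low-Ddx3y libraries 0 (3.89%). The fixed replicate block with exchanged KO numbers gave 2 (16.6%) and a fit of the compared groups only 2 (14.6%). For WT day 9 to 10, with 3 called, the range was 0 to 2 without 1 library, and the fixed replicate block (2.92%) and the low-Ddx3y libraries (0.777%) each gave 1. For KO day 7 to 8, with 4 called, a fit of the compared groups only gave 2 (31.1%, where the main fit called 21.1% higher and 20.9% lower). Where edgeR called 0, the exchanged fixed replicate block gave 1 for KO day 8 to 9 (13.2%) and 1 for KO day 9 to 10 (5.95%). That block gave 1 and 4 for the difference in the change to days 8 and 10 (0.537% and 1.79%). The exchanged random block gave 1 for KO day 9 to 10 (3.14%) and 2 for the difference to day 10 (0.11%). DESeq2's Wald test gave 1 and 2 for the differences to days 8 and 10 (0.165% and 0.255%), and log2(TPM + 1) gave 1 to day 10 (0.0413%). Where the counts moved, the cause was not tested. The replicate block with labelled numbers changed no other count by more than 1.5 times.

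Leaving out 1 library was run for libraries of the compared groups only. KO against WT could not use a fixed block, since each mouse has 1 genotype. Chac1, with few counts, had no value under the filter of at least 50 counts on average. With 3 mice per group, a missed threshold does not show equality.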

Other observations

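Of the 14 immediate early genes, which respond within minutes to stimulation, 10 were called lower and 1 higher from day 7 to day 10 in WT, and 7 lower and 1 higher in KO, against 18.1% lower and 18.9% higher of all genes in WT and 17.1% and 19.7% in KO, with medians of -0.78 and -0.44 on the log2 scale. From day 7 to day 8, Fosb fell by 3.32 (SE 0.44) in WT and 1.70 (SE 0.40) in KO, and Myc rose by 1.61 (SE 0.12) and 1.68 (SE 0.13). Of the 16 p53 targets, 11 were called higher from day 7 to day 8 in each genotype and 1 lower in WT and 2 in KO, against 21.5% higher and 22% lower of all genes in WT and 21.1% and 20.9% in KO, with Tnfrsf10b, a death receptor, rising by 1.71 (SE 0.16) in WT and 1.94 (SE 0.16) in KO.

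In KO the high-Ddx3y library had the highest Atf3 of its group on 4 of 4 days, and the highest Atf5, Ddit3, Ppp1r15a and Trib3 on 3 of 4. The same library had the lowest Chac1 and the lowest Ddit4 on 3 of 4. In WT it had the lowest Atf3 on 4 of 4 days. On days 7 to 10 the high-Ddx3y library had the lowest summed dendritic cell markers of its group both in KO (3136, 3069, 3871 and 5192 CPM) and in WT (2832, 3396, 4860 and 5713 CPM). Its macrophage markers were the highest of the group in KO on days 8, 9 and 10 (4847, 4078 and 3980 CPM) and the lowest in WT on days 7, 8 and 10 (4341, 4066 and 2986 CPM). Their part in the Atf3 order was not tested.

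Between the genotypes, the median log2 fold change of the 14 immediate early genes was -0.02 on day 7 and 0.37, 0.34 and 0.38 on days 8, 9 and 10, higher in KO, and negative for 4, 2 and 1 of the 14 on those days. By edgeR 0 of them passed the adjusted test on any of the 4 days, and 1, 9, 5 and 7 had an unadjusted p under 0.05, against 15.7%, 5.91%, 8.15% and 7.3% of all genes.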
